A study of Mus musculus with 7 samples.

Results

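Genomic imprinting leaves a mark of DNA methylation in the egg or the sperm, so that after fertilisation a gene is read from the copy of 1 parent. The marks survive the wave of demethylation in the cleavage embryo because zinc finger proteins such as ZFP57 bind a short methylated motif in them and bring in repressors. Many imprinted genes set the growth of the fetus and the placenta, and many paternally expressed ones promote growth while several maternally expressed ones restrain it. Described here are 10 imprinted genes known from the blastocyst and its lineages: Igf2, H19, Igf2r, Grb10, Plagl1, Cdkn1c, Phlda2, Peg3, Peg10 and Snrpn. They were taken by name and matched by Ensembl identifier to 10 of the 52636 gene rows in the deposited count table. The match used no measured value, but the members were chosen with earlier results of these data known.

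RNA was sequenced from pools of 10 inner cell masses (ICMs, the part of the blastocyst that gives rise to the fetus and yolk sac) of mouse embryos of the genotype Sox2Cre;CRAFR26, which carry a construct that turns on ERK when tamoxifen is given. All embryos were flushed at embryonic day 2.5 and kept for 24 h in KSOM medium with 250 nM PD173074, an inhibitor of the FGF receptors; the trophectoderm, the outer layer, was taken off by immunosurgery at about embryonic day 3.5. The vehicle group (ethanol for 4 h, time label 0 h) held 3 libraries, clone4_1, clone4_2 and clone8_1, and the tamoxifen group (250 nM 4-hydroxytamoxifen for 4 h) held 4, clone4_1, clone4_2, clone8_1 and clone8_2, where the 2 clones are separate clones of the construct. Per the series text 1 vehicle sample was discarded at quality control, so clone 8 has 1 vehicle library. Cre is driven by Sox2, and no control group without the construct was analysed here, so an effect of tamoxifen itself and an effect of ERK cannot be told apart.

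The libraries held 22981498 to 42294719 counts, and between 19287 and 22641 genes had at least 1 count. The labels call the samples epiblast. Epiblast markers were present in all 7 libraries (a summed level of 1678 to 2216 CPM, counts scaled to a library's effective total, over 10 genes), but 10 trophectoderm markers summed to more, 8530 to 11227.5 CPM with vehicle and 6546 to 9534 CPM with tamoxifen, and none of these 10 was at 0. Much of the trophectoderm sum came from 2 abundant keratins, Krt8 and Krt18 (means of 2825 and 3022 CPM), so the sums do not compare the shares of cell types. Other trophectoderm markers were also abundant: Gata3, Elf3, Id2 and Cdx2 averaged 781, 698, 567 and 463 CPM. Nanog, the highest epiblast marker, averaged 544 CPM. Krt7, Tfap2a, Eomes and Hand1 were lower, with means from 25.4 to 45.5 CPM. In bulk samples fewer cells of a type and less RNA per cell cannot be told apart. Vehicle clone8_1 stood apart: its protein-coding genes with typical transcripts under 1000 nt lay at a median of 1.29 log2 units below the other libraries (-1.29, against -0.038 to 0.22 elsewhere). Values without this library are given beside the results it bears on.

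Of the 10 genes, 6 lie on chromosome 7 (all places are in GRCm38, which is mm10). Igf2 (chr7:142650766-142666816, ENSMUSG00000048583) and H19 (chr7:142575529-142578143, ENSMUSG00000000031) are 72.6 kb apart. Cdkn1c (chr7:143458339-143461050, ENSMUSG00000037664) and Phlda2 (chr7:143501545-143503150, ENSMUSG00000010760) are 40.5 kb apart, further along the same chromosome. Peg3 (chr7:6703892-6730431, ENSMUSG00000002265) and Snrpn (chr7:59982495-60140219, ENSMUSG00000102252) lie in separate domains of that chromosome. Igf2r is at chr17:12682406-12769664 (ENSMUSG00000023830), Grb10 at chr11:11930508-12038683 (ENSMUSG00000020176), Plagl1 at chr10:13060504-13131694 (ENSMUSG00000019817) and Peg10 at chr6:4747306-4760517 (ENSMUSG00000092035). Peg10 and Plagl1 are on the plus strand and the other genes on the minus strand.

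The start regions of these genes differ in whether they hold letters of the motif that ZFP57 binds. RefSeq windows of 300 bases (250 before to 50 after an annotated start, GRCm38.p6) were found for 7 of the 10 genes, 14 windows in all. The core hexamer TGCCGC, searched on both strands, occurred in 4 windows of 4 genes (Snrpn, Plagl1, Grb10 and Igf2), beside 11.6% of all 32851 windows of that length. As background, the start regions of Snrpn and Plagl1 lie within marks inherited from the egg, whereas the marks that govern Igf2r and Phlda2 lie elsewhere, in an intron of Igf2r and at the start of Kcnq1ot1. The hexamer does not follow this division: the Peg3 window, at a start that also lies in a mark from the egg, had none, the Igf2 window with it belongs to a gene governed by a mark near H19, and the other Snrpn windows had none. The windows of these 4 genes are shown as examples with and without it, 5′ to 3′ on the strand of the gene, with the hexamer in capitals where it is read as GCGGCA:
Snrpn, chr7:60005150-60005449, minus strand: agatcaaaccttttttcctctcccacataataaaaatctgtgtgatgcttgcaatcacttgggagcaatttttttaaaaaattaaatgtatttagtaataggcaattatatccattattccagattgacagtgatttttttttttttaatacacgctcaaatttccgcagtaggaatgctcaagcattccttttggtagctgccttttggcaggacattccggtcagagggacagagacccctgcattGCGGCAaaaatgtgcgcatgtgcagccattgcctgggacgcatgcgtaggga
Plagl1, chr10:13090582-13090881, plus strand: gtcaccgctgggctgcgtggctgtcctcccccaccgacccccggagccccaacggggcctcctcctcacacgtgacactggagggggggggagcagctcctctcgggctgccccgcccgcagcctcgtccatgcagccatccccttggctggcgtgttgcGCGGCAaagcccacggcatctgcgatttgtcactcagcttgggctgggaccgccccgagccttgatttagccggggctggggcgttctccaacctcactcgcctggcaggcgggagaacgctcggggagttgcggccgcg
Igf2r, chr17:12769657-12769956, minus strand: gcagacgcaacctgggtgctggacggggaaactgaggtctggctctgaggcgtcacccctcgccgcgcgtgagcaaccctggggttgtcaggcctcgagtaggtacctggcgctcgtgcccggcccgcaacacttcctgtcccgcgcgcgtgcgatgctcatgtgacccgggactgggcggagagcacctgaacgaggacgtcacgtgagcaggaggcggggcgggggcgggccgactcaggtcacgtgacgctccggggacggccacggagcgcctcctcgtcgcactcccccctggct
Phlda2, chr7:143502475-143502774, minus strand: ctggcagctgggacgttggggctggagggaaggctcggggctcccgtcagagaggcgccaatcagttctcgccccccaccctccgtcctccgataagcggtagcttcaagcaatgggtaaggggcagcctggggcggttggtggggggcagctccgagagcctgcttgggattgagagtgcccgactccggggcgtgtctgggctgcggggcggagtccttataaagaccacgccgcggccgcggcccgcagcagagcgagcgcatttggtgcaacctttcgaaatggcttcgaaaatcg

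The Snrpn window held 7 CpG dinucleotides, equal to the median of all windows, and the Plagl1 window held 26. Igf2r and Phlda2, without the hexamer, held 34 and 26 CpGs. The richest was the Grb10 window at chr11:12037371-12037670, with 45 CpGs and 1 hexamer. A match is a description of letters only, and methylation was not measured.

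H19 is also the host of a miRNA, miR-675, whose 2 mature arms are shown for that reason, with the seed (bases 2 to 8) in capitals:
miR-675-5p: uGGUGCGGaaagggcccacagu
miR-675-3p: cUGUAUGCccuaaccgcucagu
The mature RNAs were not measured here, and the Mir675 row had 0 counts in every library.

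The 10 genes spanned a wide range of levels. To compare genes, CPM was divided by the length in kb of a typical transcript of each gene. Snrpn, which encodes the spliceosome protein SmN, was highest at 84.2 ± 12.8 CPM per kb (SD, n = 7 libraries), above 91.2% of the 16248 genes that passed the filter on low counts. Igf2r, the receptor that binds IGF2 and carries it to lysosomes, came next at 11.9 ± 1.28 CPM per kb, and Snrpn was above it in 7 of 7 libraries with no overlap. Phlda2, a pleckstrin homology protein that restrains growth of the placenta, averaged 5.50 ± 7.62 CPM per kb, and Igf2r was above it in 6 of 7 libraries.

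Below these, neighbours in the order overlapped in their range over libraries. Grb10, an adaptor that dampens insulin and IGF receptor signalling, averaged 2.74 ± 1.21 CPM per kb and was above Igf2 in 7 of 7 libraries although the 2 ranges overlapped. Igf2, the growth factor itself, averaged 1.30 ± 0.461 CPM per kb and Peg10, a gag-pol gene of retrotransposon origin needed for the placenta, averaged 1.00 ± 0.716 CPM per kb. Peg3, a large zinc finger protein, averaged 0.676 ± 0.252 CPM per kb. The lowest levels were those of the H19 non-coding RNA at 0.409 ± 0.327, the CDK inhibitor Cdkn1c (p57) at 0.338 ± 0.263 and the zinc finger factor Plagl1 (Zac1) at 0.289 ± 0.122 CPM per kb. Plagl1 was still above 12.7% of the genes that passed the filter.

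**Figure D1:**
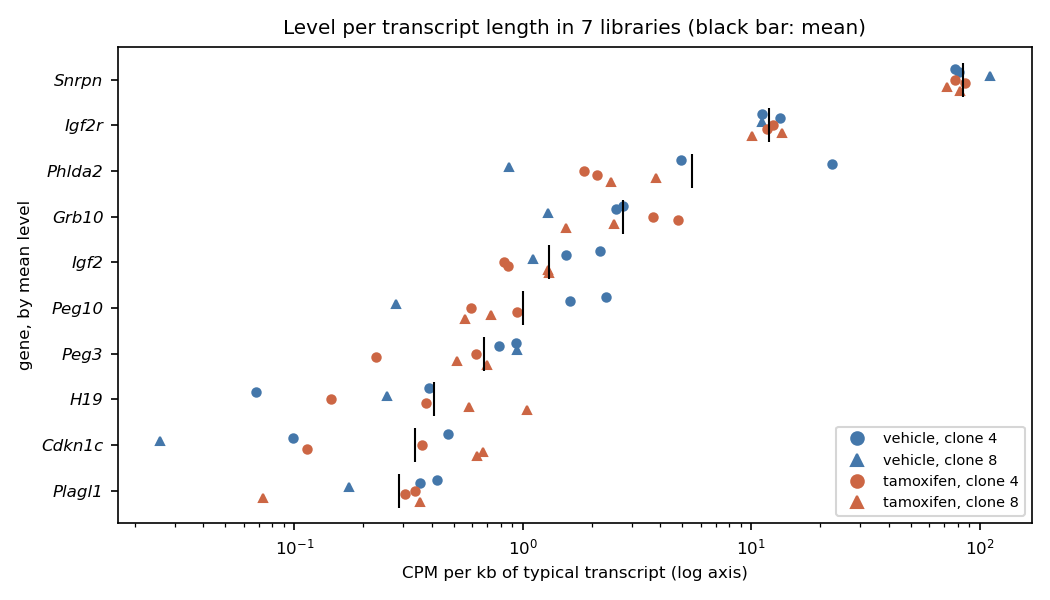
Level of each of the 10 genes in each library, in CPM per kb of typical transcript on a log axis; points are libraries (circles clone 4, triangles clone 8; blue vehicle, orange tamoxifen) and the black bar is the mean of 7. Snrpn lies apart at a mean of 84.2, Igf2r is the tightest group of points, and Phlda2 and Cdkn1c spread most widely.

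The genes also differed in how far libraries spread. The highest library was 1.35 times the lowest for Igf2r and 1.54 times for Snrpn, but 25.9 times for Phlda2, 25.9 times for Cdkn1c and 15.3 times for H19. The biological coefficient of variation fitted by edgeR was 0.184 for Igf2r, 0.192 for Snrpn and 0.721 for Phlda2, whose ratio to the trend for genes of its level was at or above that of 96.5% of genes. For Phlda2, vehicle clone4_2 alone held 58.5% of the sum over libraries. Vehicle clone8_1 had the lowest level of 4 genes (Peg10, Cdkn1c, Phlda2 and Grb10) and the highest of Peg3 and Snrpn.

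Whether these genes differ after 4 h of tamoxifen was tested with edgeR's quasi-likelihood test over all 16248 genes with Benjamini-Hochberg adjustment. No member passed at an adjusted p of 0.05, and neither did any other gene (percent called 0); by DESeq2, 4 genes in the whole table did, none of them a member. At an unadjusted p under 0.05 there was 1 member of 10, Phlda2, lower with tamoxifen, where 5.97% of all genes had such a p 3.28% with a lower and 2.69% with a higher mean. The estimates were below 0 for 6 members and above 0 for 4, with a median of -0.21, beside 48.3% of all genes below 0 and a median of 0.019. All 10 members passed the filter. The labels do not say that libraries of a group came from separate litters, so p-values measure the spread between these pools.

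The members were sorted by the parental copy known in general to be read, which was not measured in these libraries. The 5 paternally expressed members (Igf2, Peg3, Peg10, Snrpn and Plagl1) all had estimates below 0, from -0.99 to -0.18. Of the 5 maternally expressed members, 4 had estimates above 0 and Phlda2 lay below at -1.88. Of all genes 48.3% had estimates below 0. Other paternally expressed genes that passed the filter, 22 in all, had 9 higher and 13 lower estimates (median -0.063). The 16 other maternally expressed genes that passed had 5 higher and 11 lower (median -0.24). The sorting of members was made after the values were seen. The signs of Snrpn, Plagl1, Igf2r and Cdkn1c turned in at least 1 alternative fit or omission of a library. The deposited gene counts do not separate the parental alleles.

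**Figure D2:**
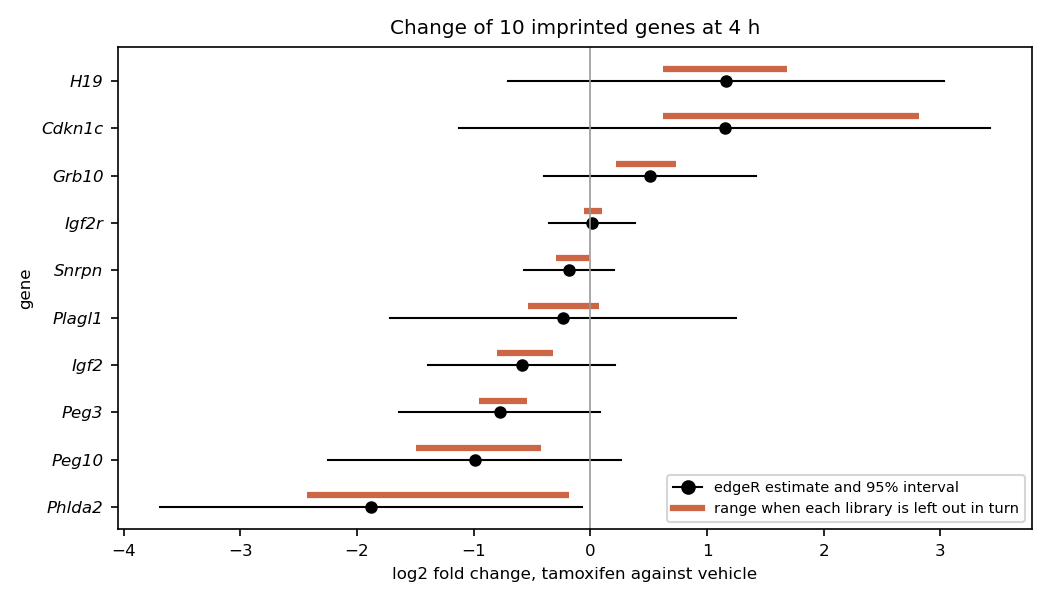
Log2 fold change of each of the 10 genes, tamoxifen (n = 4) against vehicle (n = 3); points are edgeR estimates with 95% confidence intervals, and orange bars the range of the estimate when each library is left out in turn. The interval includes 0 for 9 of the genes, and for Phlda2 the omission range runs from -2.43 to -0.18.

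Igf2 is the paternally expressed ligand of the IGF1 receptor. It measured 8.06, 5.73 and 4.12 CPM in vehicle clone4_1, clone4_2 and clone8_1 and 3.08, 3.19, 4.77 and 4.86 CPM in tamoxifen clone4_1, clone4_2, clone8_1 and clone8_2. The 2 highest values were vehicle libraries of clone 4 and the 2 lowest were tamoxifen libraries of clone 4, with the clone 8 libraries between. Its log2 fold change was -0.59 ± 0.36 (SE), 95% interval -1.39 to 0.21, adjusted p = 0.801 by edgeR. Without vehicle clone4_1 the estimate was -0.32. Of the annotated Igf2 exon bases, 62.8% lie also in a read-through model, Gm49394, which had no row in the table, and 98 bases lie in Igf2os on the other strand, which had 69 to 163 counts.

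H19, whose transcription from the maternal copy uses the same enhancers as Igf2, had 36, 5 and 24 counts with vehicle and 14, 20, 37 and 98 counts with tamoxifen, in the same order of libraries. As levels these were 0.893, 0.156 and 0.585 CPM against 0.332, 0.862, 1.34 and 2.38 CPM. The groups overlapped, and both clone 8 tamoxifen libraries were the highest. For H19 the log2 fold change was 1.16 ± 0.84, interval -0.71 to 3.03, adjusted p = 0.803 by edgeR, and 0.62 without tamoxifen clone8_2. That library also held the most counts of Col3a1, a fibroblast collagen (0 in each vehicle library, then 0, 5, 6 and 73), and the highest sum over 8 fibroblast or feeder markers, 5.10 CPM, where the vehicle libraries had 1.88 to 3.65 CPM. Of the same list, Thy1 was lower there (1.38 CPM) than in the vehicle libraries (3.08, 2.71 and 1.83 CPM), Pdgfrb was at 0 there and Twist2 was at 0 in every library; the part of these cells in the H19 value was not tested.

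Igf2r, grouped here with the maternally expressed genes, clears IGF2, and the copy read at this stage was not measured. Igf2r measured 99.3, 118.8 and 98.7 CPM with vehicle and 111.1, 104.0, 120.9 and 89.8 CPM with tamoxifen. No library stood apart, and the highest and lowest were both tamoxifen libraries of clone 8. The log2 fold change was 0.011 ± 0.16 with an interval from -0.36 to 0.38 (adjusted p = 0.991, edgeR), the narrowest interval of the 10 genes. Airn, the antisense RNA that silences the paternal copy of Igf2r in later embryos, was low, at 8 to 44 counts. Its 3597 annotated exon bases share none with Igf2r exons. The Airn gene (chr17:12741311-12860136) overlaps Igf2r in place, and RNA from outside its exons was not assessed.

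Grb10 measured 13.1, 12.2 and 6.16 CPM with vehicle and 17.6, 22.8, 11.95 and 7.36 CPM with tamoxifen. The groups overlapped. Within each clone the tamoxifen libraries stood above the vehicle ones, but clone 8 had only vehicle clone8_1. The share of all genes with such an order was not counted. The mean of clone 4 was 12.7 CPM with vehicle and 20.2 CPM with tamoxifen, and in clone 8 the vehicle library had 6.16 and the tamoxifen libraries averaged 9.66 CPM. Over both clones the log2 fold change was 0.51 ± 0.41, interval -0.40 to 1.42, adjusted p = 0.814 by edgeR. It was 0.23 (unadjusted p = 0.589, edgeR) without vehicle clone8_1 and 0.22 (unadjusted p = 0.599, edgeR) without tamoxifen clone4_2. With clone in the model it was 0.66 ± 0.27 (unadjusted p = 0.0354, adjusted p = 0.751, edgeR).

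Cdkn1c and Plagl1 are both known to restrain cell proliferation, the first from the maternal and the other from the paternal copy. Cdkn1c had 36, 6 and 2 counts with vehicle and 29, 5, 35 and 49 counts with tamoxifen (0.893, 0.187 and 0.0487 CPM against 0.687, 0.216, 1.26 and 1.19 CPM). Low and high libraries occurred in both groups, and vehicle clone8_1 was the lowest. Its log2 fold change of 1.15 ± 1.02 had an interval from -1.13 to 3.43 (adjusted p = 0.833, edgeR) and, with single libraries left out, lay between 0.62 (without vehicle clone8_1) and 2.81 (without vehicle clone4_1). Plagl1 measured 1.66, 1.40 and 0.682 CPM with vehicle and 1.33, 1.21, 0.289 and 1.41 CPM with tamoxifen. Both libraries numbered clone8_1 were low and the other 5 lay between 1.21 and 1.66 CPM. The log2 fold change of Plagl1 was -0.23 ± 0.67, interval -1.72 to 1.25, adjusted p = 0.948 by edgeR, and -0.54 without vehicle clone8_1.

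Phlda2, the member with the smallest p, measured 3.72, 17.0 and 0.658 CPM with vehicle (150, 547 and 27 counts) and 1.40, 1.59, 2.89 and 1.85 CPM with tamoxifen (59, 37, 80 and 76 counts). The vehicle libraries held both the highest and the lowest value, and the tamoxifen libraries lay between them. The log2 fold change was -1.88 ± 0.81, interval -3.69 to -0.075, unadjusted p = 0.0428 and adjusted p = 0.794 by edgeR. It was -0.18 (unadjusted p = 0.799, edgeR) without vehicle clone4_2 and -2.43 (unadjusted p = 0.00148, edgeR) without vehicle clone8_1, the library that was low in short transcripts; the typical Phlda2 transcript is 757 nt long. With clone in the model it was -1.45 (unadjusted p = 0.234, edgeR), and leaving out any single tamoxifen library also took the unadjusted p above 0.05. Of its paralogs, Phlda3 averaged 27.0 ± 7.08 CPM with vehicle and 40.4 ± 7.22 CPM with tamoxifen (log2 fold change 0.58 ± 0.23, unadjusted p = 0.0291 by edgeR, and 0.0949 without vehicle clone8_1), and Phlda1 had means of 28.4 and 30.5 CPM.

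Peg10, which is paternally expressed and has roles in the placenta, measured 15.5, 10.7 and 1.85 CPM with vehicle and 3.95, 6.29, 4.84 and 3.71 CPM with tamoxifen. As with Phlda2, the vehicle libraries of clone 4 were the 2 highest, vehicle clone8_1 was the lowest and the tamoxifen libraries were close together. For Phlda2, though, only vehicle clone4_2 was far above the rest, with vehicle clone4_1 (3.72 CPM) near tamoxifen clone8_1 (2.89 CPM). The log2 fold change was -0.99 ± 0.57, interval -2.25 to 0.27, adjusted p = 0.798 by edgeR, with -1.49 without vehicle clone8_1 and -0.42 without vehicle clone4_1. The trophectoderm markers had lower estimates with tamoxifen in 10 of 10 cases, 3 of them at an unadjusted p under 0.05 by edgeR. Of all genes 48.3% had estimates below 0 and 5.97% had such a p. Epiblast markers had higher estimates in 8 of 10 cases and primitive endoderm markers in 6 of 9. The part of these cell types in the values of Phlda2 and Peg10 was not tested.

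Peg3 was the only member whose groups did not overlap. It measured 8.09, 6.85 and 8.24 CPM with vehicle and 5.42, 1.98, 4.48 and 6.09 CPM with tamoxifen, so that each tamoxifen library lay below each vehicle library. Of all genes 8.45% had groups that did not overlap, and 4.74% with the tamoxifen libraries lower. The means were 7.73 ± 0.760 (SD, n = 3) and 4.49 ± 1.80 CPM (SD, n = 4). This gave a log2 fold change of -0.78 ± 0.39, interval -1.64 to 0.084, adjusted p = 0.794 by edgeR, and between -0.96 and -0.55 with each library left out.

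Snrpn measured 156.7, 163.3 and 223.4 CPM with vehicle and 155.9, 173.0, 144.7 and 164.6 CPM with tamoxifen. Vehicle clone8_1 stood above the rest, and the other 6 libraries lay between 144.7 and 173.0 CPM. For Snrpn the log2 fold change was -0.18 ± 0.17, interval -0.57 to 0.20, adjusted p = 0.837 by edgeR, and -0.013 without that library. Snurf, which shares the Snrpn transcript, had 0 counts in every library: all 216 of its exon bases lie in exons of Snrpn and of Gm38393, so reads from it cannot be assigned to it alone. Snrpb, the paralog that encodes the general spliceosome protein SmB, averaged 593.1 CPM with vehicle and 607.5 CPM with tamoxifen.

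**Figure D3:**
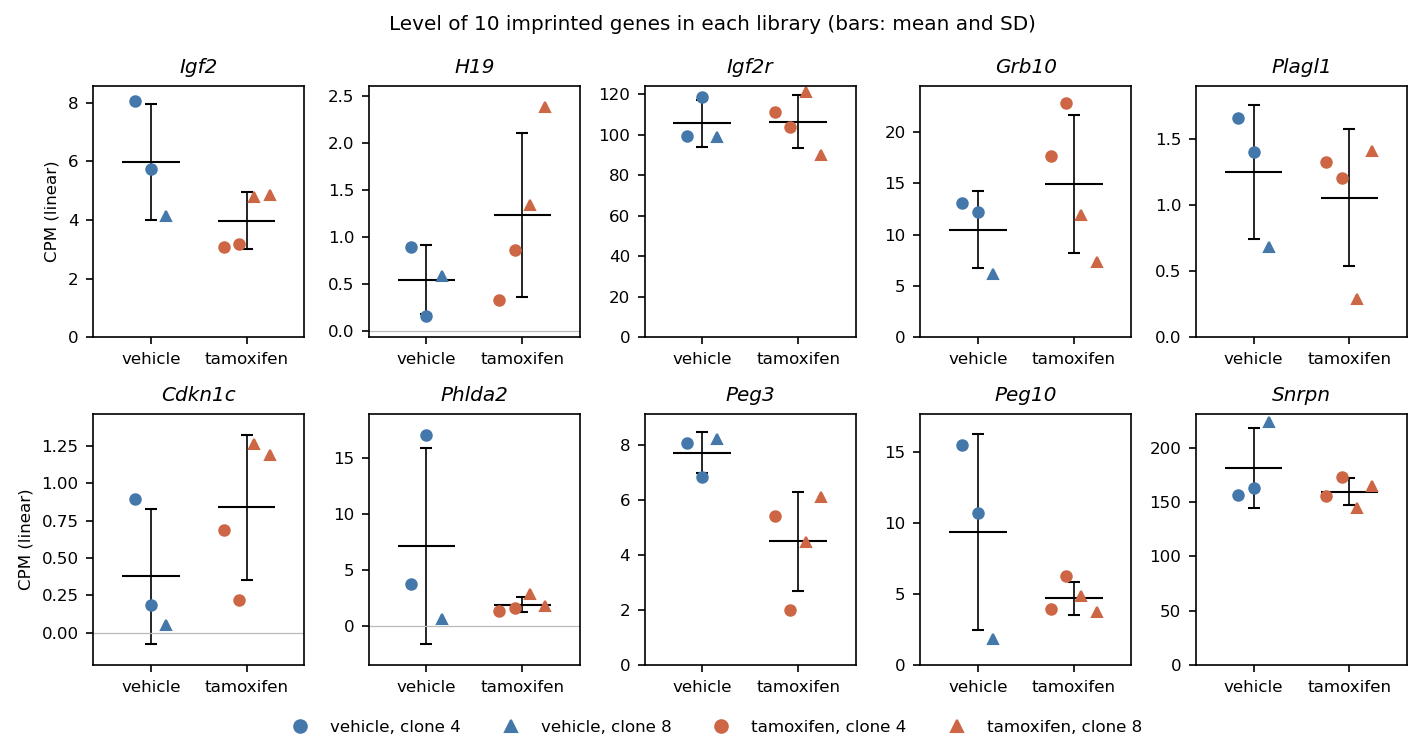
CPM of each of the 10 genes on a linear axis in vehicle (blue, n = 3) and tamoxifen (orange, n = 4) libraries, circles for clone 4 and triangles for clone 8; the horizontal line is the group mean and the bars 1 SD. The groups overlap for each gene but Peg3, and for Phlda2, Peg10 and Igf2 the highest points are vehicle libraries of clone 4.

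For 2 members the most similar genes were looked up by Pearson's r of log2 CPM over the 7 libraries, among genes with a mean of at least 10 CPM. Closest to Phlda2 were P2rx3 (r = 0.978), Cdc14a (0.971), Foxn3 (0.963), Gm2a (0.963) and Pom121 (0.941), of 8053 genes compared, and 21 had an r over 0.9. Closest to Snrpn were Mphosph10 (r = 0.991), Spdl1 (0.979), Dnajc11 (0.977), Pes1 (0.976) and Cct8 (0.976), of 8052 genes, and 185 had an r over 0.9. These are descriptions over 7 points that share the same libraries, depth and group differences. A single library weighs heavily in each: vehicle clone4_2 held 58.5% of the Phlda2 sum, and Snrpn was highest in vehicle clone8_1 at 223.4 CPM. No r was computed without these libraries.

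None of the other imprinted genes listed passed at an adjusted p of 0.05 by edgeR. Of 26 other paternally expressed genes, 22 passed the filter on low counts, with 9 higher and 13 lower estimates and a median of -0.063. An unadjusted p under 0.05 occurred for 2 of these 22, beside 5.97% of all genes. Impact, a regulator of translation, averaged 46.1 ± 13.6 CPM with vehicle and 28.4 ± 3.83 CPM with tamoxifen (log2 fold change -0.70 ± 0.23, unadjusted p = 0.0120, edgeR; without vehicle clone8_1, -0.49 and 0.0586). Dlk1, a Notch-like ligand, had 2, 0 and 1 counts with vehicle and 0, 9, 9 and 71 counts with tamoxifen, the 71 in tamoxifen clone8_2, the library with the most H19 and Col3a1. The highest levels per length among these genes were those of Slc38a4 (an amino acid transporter, 90.1 CPM per kb), Mcts2 (24.7), Sfmbt2 (19.01), Jade1 (18.4) and Gab1 (18.3 CPM per kb). Gab1, an adaptor of receptor tyrosine kinases, and Jade1 had groups that did not overlap, as for 4.74% of all genes with tamoxifen lower. Their vehicle means were 105.1 and 100.9 CPM and their tamoxifen means 79.4 and 78.2 CPM (unadjusted p = 0.0514 and 0.0552, edgeR).

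Of 24 other maternally expressed genes 16 passed the filter, with 5 higher and 11 lower estimates and a median of -0.24. Asb4, a ubiquitin ligase subunit of the Peg10 domain, was the only gene of this list with an unadjusted p under 0.05. Of all genes, 5.97% had such a p. Asb4 averaged 2.05 ± 0.621 CPM with vehicle and 0.583 ± 0.320 CPM with tamoxifen (log2 fold change -1.80 ± 0.63, unadjusted p = 0.0172, edgeR). Its groups did not overlap, as for 4.74% of all genes with tamoxifen lower. The highest levels per length were those of the histone chaperone Nap1l4 (107.6 CPM per kb), Tssc4 (41.6), Dhcr7 (39.0), Commd1 (13.1) and the non-coding RNA Meg3 (13.0 CPM per kb). Nap1l4, the neighbour of Phlda2, lay between 188.4 and 326.6 CPM.

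Factors that protect imprints were all measured, 10 of 10, with 5 higher and 5 lower estimates. Of the 10, 2 had an unadjusted p under 0.05 by edgeR, beside 5.97% of all genes. Zfp445, a zinc finger protein that acts alongside ZFP57, measured 42.03, 39.7 and 35.4 CPM with vehicle and 25.4, 22.7, 21.1 and 30.7 CPM with tamoxifen. Each tamoxifen library lay below each vehicle library, as for 4.74% of all genes. The log2 fold change was -0.64 ± 0.19 (unadjusted p = 0.00775, adjusted p = 0.794, edgeR). Dppa3, known as Stella, which shields maternal marks from demethylation, measured 3719, 3222 and 1819 CPM with vehicle and 4289, 4619, 4766 and 3847 CPM with tamoxifen. Its tamoxifen libraries were all above the vehicle libraries, as for 3.71% of all genes (log2 fold change 0.58 ± 0.23, unadjusted p = 0.0270, adjusted p = 0.794, edgeR). The lowest value was in vehicle clone8_1, the library low in short transcripts, and the typical Dppa3 transcript is 833 nt long. Without that library the log2 fold change of Dppa3 was 0.33 ± 0.12 (unadjusted p = 0.0213, edgeR), and that of Zfp445 was -0.72 ± 0.21 (unadjusted p = 0.00790, edgeR). Per length, Dppa3 (4507 CPM per kb), Trim28 (108.0), Zfp57 (79.9), Uhrf1 (72.4) and Setdb1 (12.7 CPM per kb) were the highest of this list. ZFP57's own gene averaged 135.5 CPM with vehicle and 159.9 CPM with tamoxifen, with overlapping groups.

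In the IGF pathway 8 of 14 genes passed the filter, with 5 higher and 3 lower estimates, a median of 0.088 and no unadjusted p under 0.05. Igf1, Irs1, Irs2, Igfbp3, Igfbp5 and Igfbp7 did not pass it. The highest were the RNA-binding proteins of Igf2 mRNA, Igf2bp3 (38.1 CPM per kb), Igf2bp2 (37.1) and Igf2bp1 (31.3), followed by Igfbp2 (1.18) and the insulin receptor Insr (0.619 CPM per kb). The signalling receptor Igf1r was low, between 4 and 76 counts.

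The 2 clones were compared with condition in the model. No gene passed at an adjusted p of 0.05 by edgeR (percent called 0), 13 did by DESeq2, and 3.13% of genes had an unadjusted p under 0.05. Among members 1 did, Grb10. It averaged 16.4 ± 4.88 CPM in the 4 libraries of clone 4 and 8.49 ± 3.06 CPM in the 3 of clone 8, and every library of clone 8 lay below every library of clone 4, as for 2.66% of all genes; clones did not overlap in either direction for 4.81%. The log2 difference was -1.06 ± 0.27 (unadjusted p = 0.00368, adjusted p = 0.983, edgeR) and stayed between -1.25 and -0.90 with each library left out. No other member had an unadjusted p under 0.0818 in this comparison.

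Of the other maternally expressed genes 3 of 16 had an unadjusted p under 0.05 between clones, beside 3.13% of all genes. Meg3, which lies in the Dlk1 domain, averaged 31.0 ± 7.12 CPM in clone 4 and 17.4 ± 4.94 CPM in clone 8 (log2 difference -0.87, unadjusted p = 0.00930, edgeR). Rian of the same domain averaged 10.3 ± 1.37 and 6.39 ± 1.02 CPM without overlap (log2 difference -0.70, unadjusted p = 0.0376, edgeR). Of all genes 2.66% had clones without overlap and lower in clone 8. For Mirg and Dlk1, also of this domain, the clones overlapped. The log2 difference of Mirg was -0.69 (unadjusted p = 0.368, edgeR). That of Dlk1, which had few counts, was above 0, at 1.78 (unadjusted p = 0.293, edgeR). Tssc4 was higher in clone 8, with a log2 difference of 0.57 (unadjusted p = 0.0214, edgeR). Without vehicle clone8_1, the library low in short transcripts, Meg3 differed by -0.91 (unadjusted p = 0.0265, edgeR), Rian by -0.50 (unadjusted p = 0.177, edgeR) and Tssc4 by 0.35 (unadjusted p = 0.186, edgeR).

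**Figure D4:**
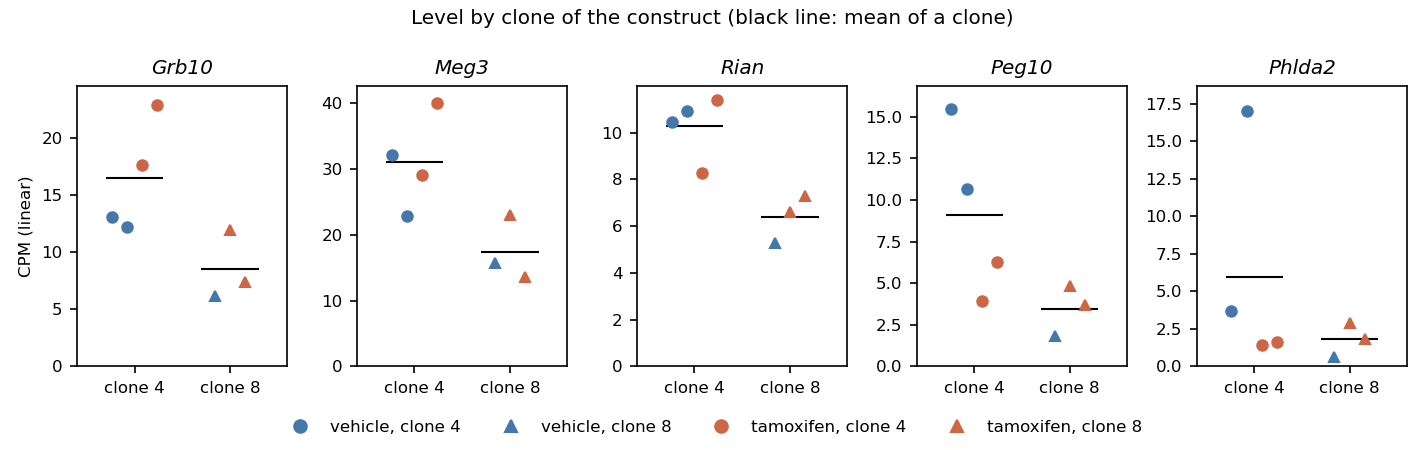
CPM on a linear axis of Grb10, Meg3, Rian, Peg10 and Phlda2 in libraries of clone 4 (n = 4) and clone 8 (n = 3), circles and triangles, blue for vehicle and orange for tamoxifen; black lines are means of a clone. For Grb10 and Rian the clones do not overlap, and for Peg10 and Phlda2 the vehicle libraries of clone 4 lie highest and that of clone 8 lowest.

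Whether the 4 h change differed between clones was tested by the interaction term, which rests on the single vehicle library of clone 8. By edgeR 514 genes, 3.16%, passed at an adjusted p of 0.05, none of them a member. Nearly all lay in 1 direction: 510 had a difference above 0 (clone 8 minus clone 4) and 4 below 0. At an unadjusted p under 0.05 there were 3 of 10 members, beside 14.8% of all genes. These 3 also had differences above 0, the direction of most genes called over the whole table. Phlda2 averaged 10.4 CPM with vehicle and 1.50 CPM with tamoxifen in clone 4, but 0.658 and 2.37 CPM in clone 8, a log2 difference of changes (clone 8 minus clone 4) of 4.63 ± 1.23 (unadjusted p = 0.00497, adjusted p = 0.106, edgeR). Peg10 averaged 13.1 CPM with vehicle and 5.12 CPM with tamoxifen in clone 4, but 1.85 and 4.28 CPM in clone 8 (difference 2.56 ± 0.70, unadjusted p = 0.00607, adjusted p = 0.121, edgeR). Cdkn1c had a difference of 4.80 ± 2.01 (unadjusted p = 0.0422, adjusted p = 0.314, edgeR). DESeq2 called Phlda2 (adjusted p = 0.00140) and Peg10 (adjusted p = 0.0144) where it called 6.25% of all genes. Of 9 alternative fits, 7 left Phlda2 uncalled as in the main fit, and 8 did so for Peg10. The Phlda2 difference ran from 3.15 without vehicle clone4_2 to 5.32 without vehicle clone4_1. Each of these 2 fits set 1 vehicle library of clone 4 against 1 of clone 8. The term cannot be fitted without vehicle clone8_1, so a difference between clones and a difference of that library cannot be told apart.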

How the data were processed

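The authors deposited raw counts per Ensembl gene, whole numbers that were not normalised. Per the submitters' processing notes, reads were demultiplexed with bcl2fastq 2.19.1 and the tools and builds named include STAR 2.5.3a and mm10; the counting program, its annotation and its use of strand are not given in the sources used here, so reads of overlapping genes on opposite strands could not be told apart. Reads carried no stated molecular identifiers and libraries came from amplified RNA, so counts are not independent molecules.

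From the counts, CPM used TMM effective library sizes and log2 CPM a prior count of 2. Genes were filtered with filterByExpr and tested with edgeR 4.0.16 (quasi-likelihood, R 4.3.3, limma 3.58.1) on all 7 libraries, with Benjamini-Hochberg adjustment over 16248 genes at 0.05; alternatives were DESeq2 1.42.0, clone in the model (the groups are unbalanced by clone), other scalings and filters, and leaving out libraries. Scripts were tested on simulated data. Symbols came from GENCODE by Ensembl identifier for 52489 rows, and the other 147 held at most 0.0113% of a library's counts. Typical length is the median over basic protein-coding transcripts, or over basic transcripts of non-coding genes.

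The members and lists were chosen with earlier results of these data known. Named beside the 10 members were, from each list, genes with an unadjusted p under 0.05 and the 5 with the highest level per length; other genes named were chosen after their values were seen. Lists held other paternally and maternally expressed imprinted genes, imprint protection factors, the IGF pathway and markers of trophectoderm, epiblast, primitive endoderm and fibroblasts. Primitive endoderm markers summed to 844 to 1148 CPM with vehicle and 884 to 1031 CPM with tamoxifen.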

Additional observations from a re-analysis of the deposited data

How the results depend on the processing

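Over 167 alternative estimates of the members' tamoxifen change none passed at an adjusted p of 0.05, and 11 changed sign. Precision is limited by 3 and 4 libraries and, for H19 and Cdkn1c, by counts as low as 5 and 2. Genes called over the whole table numbered 4 by DESeq2 (3 higher, 1 lower), 2 without both libraries numbered clone8_1 and 0 with each library left out. Members with an unadjusted p under 0.05 numbered 3 without both clone8_1 libraries (Igf2, Peg10 and Phlda2, all lower; 7.25% of all genes), 4 in clone 4 alone (these and Grb10, higher; 7.87%) and 0 to 2 with each library left out: 0 without vehicle clone4_2 or any tamoxifen library, 2 without vehicle clone4_1 (Phlda2, lower, and Cdkn1c, higher; 8.97%) and 2 without vehicle clone8_1 (Phlda2 and Peg10, lower; 6.54%). With clone in the model the 1 member was Grb10, not Phlda2 (6.09%). The values of 10 genes of other lists without vehicle clone8_1 were added after seeing the data, and none changed sign.

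The Igf2r estimate was -0.11 without both clone8_1 libraries, -0.028 in clone 4 alone and from -0.054 to 0.10 with each library left out. Snrpn was 0.035 and 0.031 in the first 2 of these. Cdkn1c was -0.25 in clone 4 alone, and Plagl1 ran from -0.54 to 0.076 with each library left out. Clone 8 against clone 4 gave 13 genes by DESeq2; with each library left out no gene was called, and Igf2 ran from -0.060 to 0.62, Igf2r from -0.20 to 0.013, Snrpn from -0.085 to 0.25, Cdkn1c from -1.03 to 1.42 and Phlda2 from -1.67 to 0.66. The interaction gave 1016 genes by DESeq2 and 52 (without tamoxifen clone4_2) to 695 (without tamoxifen clone8_2) with each library left out, 107 without tamoxifen clone4_1 and 267 without vehicle clone4_1. Its Grb10 value was 0.010 with a mean count of at least 50 and ran from -0.42 to 0.28 with each library left out, H19 from -0.26 to 2.31, Igf2r from -0.11 to 0.32, Peg3 from -0.19 to 1.23 and Plagl1 from -0.95 to 1.32. The cause was not tested.

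Vehicle and tamoxifen libraries share labels, but same-label deviations correlated at 0.0078, 0.021 and -0.068, so the labels were not taken as pairs. With the replicate block no gene was called, and 2 members had an unadjusted p under 0.05 by edgeR, Peg3 at -1.07 and Grb10 at 0.76, while Phlda2 was at -1.05 (unadjusted p = 0.388, edgeR); 4.44% of all genes had such a p.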

Other observations

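Further imprinted genes are given as values, chosen after they were seen. Kcnq1ot1, the non-coding RNA whose transcription silences the paternal copies of Cdkn1c and Phlda2, measured 12.9, 34.7 and 31.7 CPM with vehicle and 26.0, 26.8, 24.5 and 25.4 CPM with tamoxifen, so that vehicle clone4_1 was the lowest library. Mest, a paternally expressed hydrolase gene, measured 9.25, 6.35 and 3.22 CPM with vehicle and 10.1, 11.2, 1.63 and 9.93 CPM with tamoxifen, lowest in the 2 libraries numbered clone8_1, as was Plagl1. Ube3a and Ddc, maternally expressed in some tissues, had each tamoxifen library above each vehicle library, as for 3.71% of all genes. Ube3a averaged 32.2 ± 3.02 CPM with vehicle and 41.3 ± 2.32 CPM with tamoxifen, and Ddc averaged 7.53 ± 2.24 CPM and 11.4 ± 1.10 CPM. Trim28, the corepressor that ZFP57 recruits, measured 658.1 CPM in tamoxifen clone8_1 and 206.3 to 327.3 CPM in the other 6 libraries.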
